A study of Mus musculus with 20 samples.

Results

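Genes for 10 myokines, proteins that skeletal muscle releases or that act around its fibres, were followed here: Mstn, Igf1, Apln, Il15, Ostn, Fndc5, Metrnl, Sparc, Dcn and Fstl1. They were chosen by name, as 10 of the 53465 genes in each deposited table. Earlier results of these data, the sex difference of Ostn among them, were known at that point. Poly(A) RNA of muscle from wild-type mice (genotype WT) had been sequenced in 4 groups of 5 libraries: trained males, non-trained males, trained females and non-trained females. The labels used here give no strain, age, muscle, training protocol or time of collection. Nothing in them says that each library comes from its own animal, so the p-values reflect spread among libraries, part of which may be technical. The title of the series concerns exercise and age-associated decline of muscle, and the comparisons ask how training and sex went with the levels of these genes.

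Myokines carry signals from muscle to itself and to other organs. Some limit or promote fibre growth, some are peptides or cytokines that act on vessels, bone, fat or immune cells, and some are secreted proteins of the matrix between the fibres. In whole muscle their transcripts come from fibres and from the fibroblasts, vessels and immune cells around them. Fewer cells of a type and less RNA per cell cannot be told apart in such samples.

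Library totals ran from 22043145 to 38483572 counts. Markers of muscle fibres (Acta1, Ckm, Ttn, Mb, Des and Myod1) were above 0 in every library, with summed levels of 50713 to 67079 CPM (counts scaled to TMM-adjusted library size). Non-trained female library 1 had the fewest genes above 0, 18727 against 19806 to 21449 in the others. Its summed tendon markers stood at 16.6 CPM, where the rest of non-trained females had 70.5 to 435.2 CPM. Its sums for fibroblast, endothelium, macrophage and Schwann cell markers were also the lowest of all libraries, at 66.5, 163.4, 19.9 and 31.6 CPM. Its adipocyte sum, 43.5 CPM, was not the lowest. The same library had the largest total, 38483572 counts.

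All 10 genes passed the low-count filter and held at least 13 counts in every library. On the TPM scale, which corrects for length, their levels ran in the order Dcn, Sparc, Ostn, Fndc5, Mstn, Fstl1, Il15, Igf1, Metrnl and Apln. Decorin (Dcn) averaged 292.3 ± 94.3 TPM and apelin (Apln) 0.546 ± 0.225 TPM (SD, n = 20 each). Among the 15709 genes tested, the mean TPM of Dcn stood at percentile 98.0 and that of Apln at percentile 12.9. Dcn exceeded Sparc, and Metrnl exceeded Apln, in all 20 libraries. Mstn exceeded Fstl1 in 19 of 20 and Fstl1 exceeded Il15 in 19 of 20. Ostn exceeded Fndc5 in 7 of 10 male and 10 of 10 female libraries. The order of some other neighbours depended on sex. Sparc exceeded Ostn in 10 of 10 male and 2 of 10 female libraries. Igf1 averaged 10.7 ± 3.31 TPM in males, against 3.67 ± 1.65 TPM in females (SD, n = 10 each). It lay below Il15 in 1 of 10 male and 10 of 10 female libraries, and above Metrnl in 10 of 10 male and 2 of 10 female libraries. Fndc5 exceeded Mstn in 4 of 10 male and 7 of 10 female libraries, so these 2 genes were not separated in either sex.

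**Figure D1:**
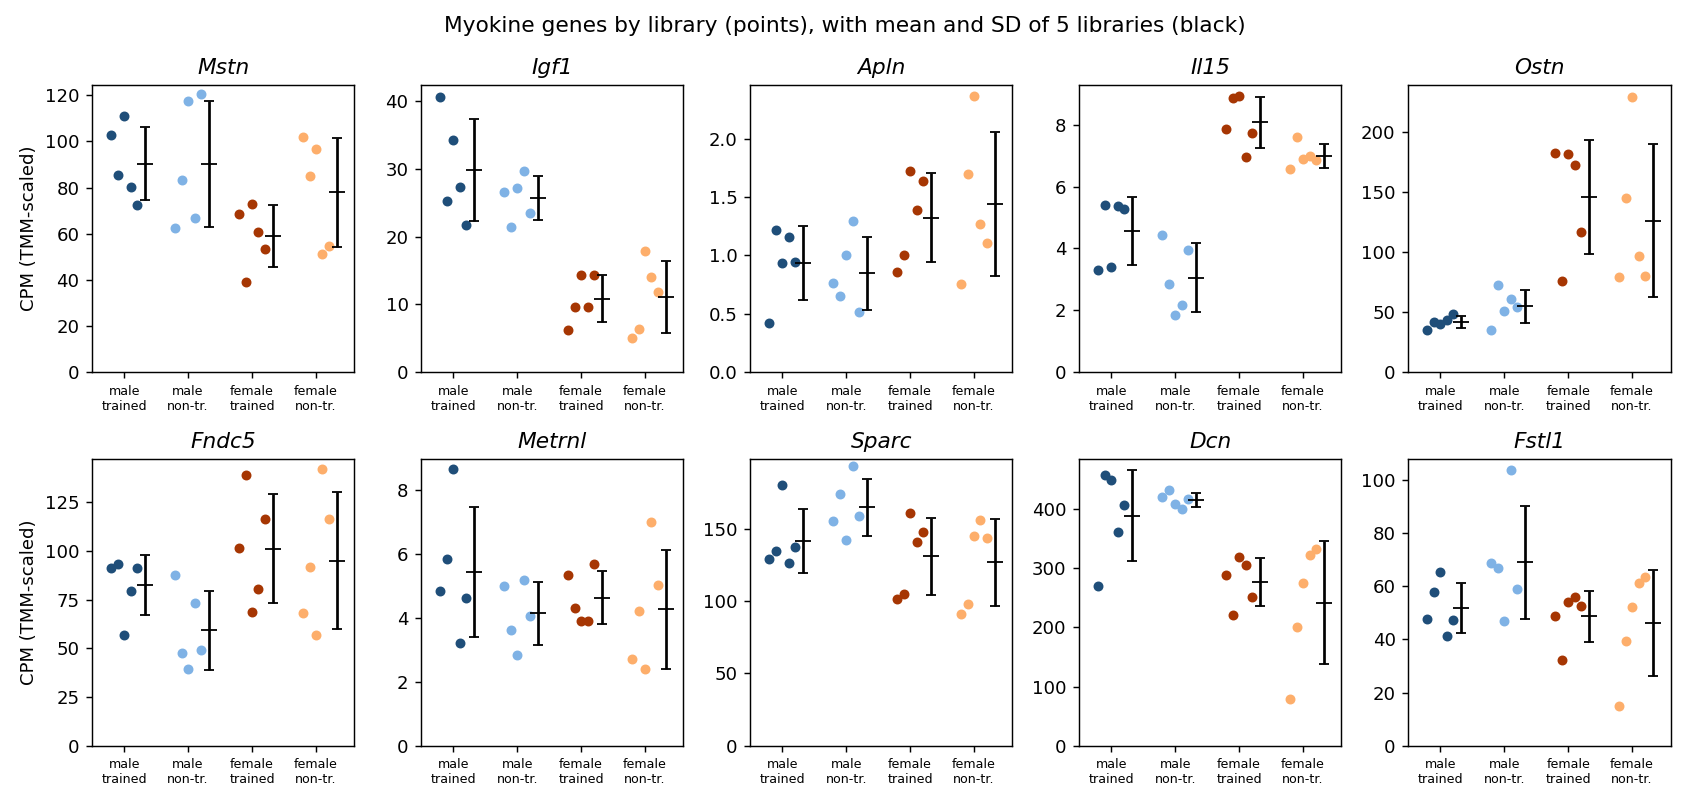
Level of each of the 10 myokine genes in CPM (linear axis from 0) in the 20 libraries, in columns for trained males, non-trained males, trained females and non-trained females. Each point is 1 library, and the black bar gives the mean and SD of 5 libraries. Igf1 lies higher in males, and Ostn and Il15 lie lower in males, without overlap between the sexes in either training state.

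Sex went with the levels of 3 of the 10 genes in both training states. Igf1, the growth factor, was higher in males, and Il15, a cytokine, and Ostn, the natriuretic-like peptide osteocrin, were lower in males. Since the sex difference of Ostn was known when the 10 were chosen, their counts are not a blind draw against all genes. In trained mice 1 gene rose, 2 fell and 7 did not pass an adjusted p of 0.05 in edgeR. Of all 15709 genes 5.6% passed, 3.39% higher and 2.22% lower in males. In non-trained mice the counts for the 10 genes were again 1, 2 and 7, where 5.21% of all genes passed, 3.14% higher and 2.07% lower in males. Without TMM scaling the share of calls that were higher in males was 79.6% instead of 60.5% in trained mice, and 75.0% instead of 60.3% in non-trained mice. In trained mice the sexes did not overlap for 1 gene that was higher and 2 that were lower in males, against 7.38% of all genes (3.92% higher, 3.46% lower). In non-trained mice this held for 2 higher and 2 lower, against 6.38% of all genes (3.98% higher, 2.39% lower). Values above 0 were seen for 6 of the 10 in trained mice, against 50.5% of all genes, and for 5 in non-trained mice, against 50.8%. The median log2 difference of the 10 genes was 0.10 in trained and 0.09 in non-trained mice, against 0.00 over all genes in each.

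Insulin-like growth factor 1 (Igf1) promotes growth of muscle fibres and is made in muscle as well as in liver. It stood at 40.6, 25.3, 34.3, 27.4 and 21.7 CPM in trained males, against 6.26, 9.66, 14.3, 9.68 and 14.4 CPM in trained females. In non-trained males it stood at 26.6, 21.4, 27.1, 29.7 and 23.5 CPM, against 5.03, 6.42, 17.9, 14.0 and 11.8 CPM in non-trained females. Every male library lay above every female library. The log2 difference was 1.46 (SE 0.29, adjusted p = 0.0069) in trained mice, a 2.76-fold higher level in males. In non-trained mice it was 1.22 (SE 0.29, adjusted p = 0.020), or 2.33-fold higher. The non-trained call was lost without non-trained female library 2 (adjusted p = 0.053). It was also lost with only the groups compared in the fit (adjusted p = 0.064) and without a low-count filter (adjusted p = 0.055). Non-trained female library 1 held the lowest Igf1 level, and without it the log2 difference in non-trained mice was 1.03 (adjusted p = 0.041). With non-trained male library 4 and trained male library 3 left out as well it was 0.97 (adjusted p = 0.082).

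Igf1 lies on chromosome 10 (87858265 to 87937042, GRCm38). An antisense gene, Igf1os, overlaps it and did not pass the low-count filter. Of the IGF pathway list, 14 of 15 genes were tested. In trained mice 1 of them rose in males, 1 fell and 12 did not pass, with a list median of 0.02. In non-trained mice 1 rose and 13 did not pass, with a median of -0.09. Igfbp4, which encodes a binding protein that limits access of IGF to its receptor, averaged 68.6 ± 10.2 CPM in non-trained males, against 38.5 ± 10.1 CPM in non-trained females (n = 5 per group, SD), or 0.83 on the log2 scale (SE 0.16, adjusted p = 0.0042). Igf1r, the receptor gene, averaged 15.6 ± 1.10 CPM in trained males, against 19.6 ± 1.77 CPM in trained females (n = 5 per group, SD), or -0.32 on the log2 scale (SE 0.08, adjusted p = 0.027). Its call was lost when any 1 of trained female libraries 1, 3 and 4 and trained male libraries 3 and 5 was left out (adjusted p = 0.074, 0.052, 0.085, 0.074 and 0.056). It was lost too without TMM scaling (adjusted p = 0.059) and without a low-count filter (adjusted p = 0.074). Igf2, a growth factor gene of the same family, was higher in trained males by 1.17 (SE 0.33, adjusted p = 0.046) and spread from 19.6 to 79.3 CPM there, against 11.5 to 23.5 CPM in trained females. Leaving out 1 library ended the Igf2 call in 15 of 20 fits. It was lost too in limma-voom (adjusted p = 0.093), without a low-count filter (adjusted p = 0.11) and with only the groups compared (adjusted p = 0.13). Without trained male library 1 the log2 difference was 0.74 (adjusted p = 0.12).

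Osteocrin (Ostn) is a small secreted protein of muscle and bone that binds the natriuretic peptide clearance receptor, encoded by Npr3. In trained males Ostn stood at 34.8, 41.9, 40.4, 43.1 and 48.1 CPM, against 183.0, 76.2, 181.9, 172.9 and 117.2 CPM in trained females. In non-trained males it stood at 35.2, 72.9, 51.0, 61.4 and 54.5 CPM, against 79.6, 145.1, 229.9, 96.5 and 79.9 CPM in non-trained females. The sexes did not overlap in either state, and the gap was narrow in non-trained mice, where the highest male reached 72.9 CPM and the lowest female 79.6 CPM. The log2 difference was -1.81 (SE 0.30, adjusted p = 0.0015) in trained and -1.20 (SE 0.29, adjusted p = 0.022) in non-trained mice, levels 0.285 and 0.436 times those of females. Without non-trained female library 2 or non-trained male library 3 the non-trained call was lost (adjusted p = 0.051 and 0.057). The same held with only the groups compared (adjusted p = 0.073) and without a low-count filter (adjusted p = 0.055). The sex effect was larger in trained mice by 0.61 on the log2 scale, but that difference did not pass (interaction SE 0.41, adjusted p = 0.999).

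Ostn lies on chromosome 16 (27307489 to 27351212, GRCm38) with a single transcript in the table. Of 7 genes listed for osteocrin and natriuretic peptides, 4 were tested and none passed in either sex comparison. Npr3 itself had log2 differences of -1.01 (SE 0.35, adjusted p = 0.097) in trained and -0.69 (SE 0.34, adjusted p = 0.25) in non-trained mice. Npr1, the receptor gene for atrial natriuretic peptide, differed by -0.03 (SE 0.13, adjusted p = 0.92) and 0.45 (SE 0.13, adjusted p = 0.055). The ligand genes Nppa, Nppb and Nppc did not pass the low-count filter, with at most 7, 1 and 9 counts in any library.

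Il15 encodes an interleukin that supports natural killer and T cells and is transcribed widely in muscle. It stood at 3.29, 5.39, 3.41, 5.38 and 5.29 CPM in trained males, against 7.87, 8.87, 8.93, 6.94 and 7.74 CPM in trained females. In non-trained males it stood at 4.44, 2.86, 1.83, 2.18 and 3.96 CPM, against 6.57, 7.60, 6.90, 6.98 and 6.86 CPM in non-trained females. The coefficient of variation was 36.7% in non-trained males, against 5.42% in non-trained females, the most uniform group for this gene. The log2 difference was -0.82 (SE 0.20, adjusted p = 0.017) in trained and -1.19 (SE 0.20, adjusted p = 0.0016) in non-trained mice, levels 0.565 and 0.439 times those of females. The non-trained call held with each library left out and under every other alternative. The trained call was lost without trained male library 3 (adjusted p = 0.056) and held in the other fits. Il15ra, the gene of its private receptor chain, differed by -0.08 (SE 0.11, adjusted p = 0.76) and 0.11 (SE 0.11, adjusted p = 0.61).

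**Figure D2:**
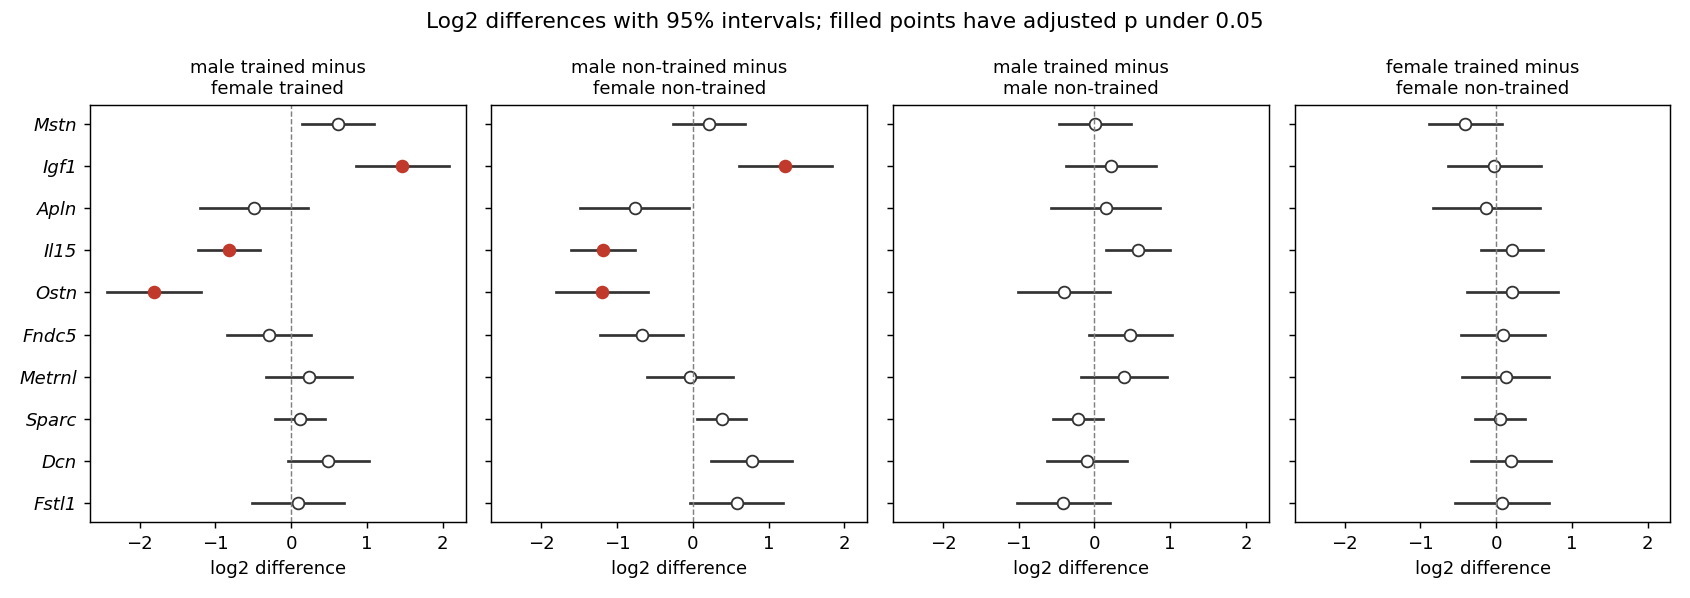
Log2 differences (x axis) of the 10 myokine genes (y axis) for males minus females in each training state and for trained minus non-trained mice in each sex. Lines are 95% intervals from edgeR, and filled points have an adjusted p under 0.05. Filled points are seen for Igf1, Il15 and Ostn between the sexes and for no gene with training.

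Markers of 2 other cell populations differed between the sexes beside these 3 genes. Macrophage markers rose in males for 4 of 6 genes in trained mice and 3 of 6 in non-trained mice. Their sums were 55.6 to 268.8 CPM in trained males, against 34.2 to 63.0 CPM in trained females, and 71.1 to 160.5 CPM in non-trained males, against 19.9 to 64.0 CPM in non-trained females. Slow fibre markers fell in males for 1 of 7 genes in trained mice and 6 of 7 in non-trained mice. The sums ran from 528.6 to 1572 CPM in trained males, against 383.4 to 4971 CPM in trained females, and from 241.6 to 1116 CPM in non-trained males, against 903.3 to 3982 CPM in non-trained females. No marker of these 2 lists was at 0 in any library. Their part in the sex differences of Igf1, Il15 and Ostn was not tested. Within groups, Ostn ran against the slow fibre sum (Pearson r = -0.50, Spearman rho = -0.38, 20 libraries), and r was -0.22 without the 2 libraries farthest from the median of Ostn. With the macrophage sum Ostn had r = -0.11 (rho = -0.18). Igf1 had r = 0.44 with the macrophage sum (rho = 0.42), or 0.28 without non-trained female library 1, and r = -0.38 with the slow fibre sum (rho = -0.35). Il15 had r = -0.23 with the macrophage sum (rho = -0.12) and r = 0.04 with the slow fibre sum (rho = -0.04). The slow fibre sums of trained female libraries 1 to 5 were 3261, 4971, 383.4, 2763 and 4898 CPM. Their Ostn levels were 183.0, 76.2, 181.9, 172.9 and 117.2 CPM. In non-trained female libraries 1 to 5 the sums were 3982, 3328, 903.3, 2914 and 3734 CPM. Ostn stood there at 79.6, 145.1, 229.9, 96.5 and 79.9 CPM. Trained male libraries 1 to 5 had sums of 975.4, 1076, 528.6, 572.9 and 1572 CPM. Their Ostn levels were 34.8, 41.9, 40.4, 43.1 and 48.1 CPM. For non-trained male libraries 1 to 5 the sums were 517.4, 264.5, 241.6, 1116 and 495.5 CPM. Ostn was at 35.2, 72.9, 51.0, 61.4 and 54.5 CPM in them. The library with the highest sum held the least Ostn in both female groups, but the most in trained males.

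The other 7 genes did not pass between the sexes. Mstn encodes myostatin, a TGF-beta family ligand that restrains muscle growth. It averaged 90.4 ± 16.0 CPM in trained males, against 58.9 ± 13.3 CPM in trained females (n = 5 per group, SD), or 0.62 on the log2 scale (SE 0.23, adjusted p = 0.12). In non-trained mice it averaged 90.2 ± 27.5 CPM in males, against 77.9 ± 23.6 CPM in females (n = 5 per group, SD), or 0.21 (SE 0.23, adjusted p = 0.64). Fndc5, the gene of the membrane precursor of irisin, had differences of -0.29 (SE 0.26, adjusted p = 0.58) and -0.68 (SE 0.26, adjusted p = 0.14). Apln, the gene of the ligand of a receptor on vessel walls, stood at 0.419 to 1.22 CPM in trained males, against 0.860 to 1.72 CPM in trained females, and 0.511 to 1.29 CPM in non-trained males, against 0.755 to 2.37 CPM in non-trained females. Its differences were -0.50 (SE 0.34, adjusted p = 0.45) and -0.77 (SE 0.34, adjusted p = 0.19). Metrnl, a gene for a secreted hormone-like protein of muscle and fat, had 0.23 and -0.04 (adjusted p = 0.69 and 0.96), within a range of 2.40 to 8.66 CPM over all libraries.

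The RefSeq bases just before the start of Mstn are shown because this window held the most E-boxes of the 7 examined and overlaps no annotated exon. The window is chr1:53061390-53061639 on the plus strand (GRCm38.p6), read 5′ to 3′, and the capitals mark each E-box, the CANNTG motif that muscle regulatory factors such as MyoD can bind.

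Mstn: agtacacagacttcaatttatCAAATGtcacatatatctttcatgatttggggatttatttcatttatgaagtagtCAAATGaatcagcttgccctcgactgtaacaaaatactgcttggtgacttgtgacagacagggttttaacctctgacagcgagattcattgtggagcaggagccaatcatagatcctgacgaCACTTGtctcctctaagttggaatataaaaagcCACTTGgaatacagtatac

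These 250 bases held 4 E-boxes, starting 229, 174, 52 and 19 bases before the annotated start, and a TATAAA motif at 29 bases. On both strands 66.2% of the 32536 distinct promoter windows of this length held an E-box, with a mean of 1.16 per window, and 12.3% held TATAAA. RefSeq promoter entries matched 7 of the 10 genes. In the same length before the start, Apln held 3 E-boxes, Sparc 2, Igf1 and Metrnl 1 each, and Fndc5 and Fstl1 0. Annotated exons overlap the windows of Fndc5, Igf1, Sparc, Metrnl and Fstl1. The windows of Igf1, Sparc and Metrnl lie inside the annotated span of the gene itself, so their motifs are not upstream of it. AGGTCA, a hexamer that nuclear receptors bind, was found in Igf1 alone, overlapping its E-box (14% of all windows). AGAACA, a hexamer of the androgen and glucocorticoid receptor site, was found in Sparc alone, at 2 places of which the nearer to the start overlaps an E-box (16% of all windows). The STAT motif TTCNNNGAA was in none of the 7 (7.04% of all windows). No motif was tied to a level here.

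The matrix genes did not pass between the sexes either. Decorin, a small proteoglycan that binds collagen fibrils, stood at 421.3, 431.8, 408.0, 399.4 and 417.4 CPM of Dcn in non-trained males, against 79.8, 200.9, 275.9, 321.7 and 332.5 CPM in non-trained females. The groups did not overlap, yet Dcn did not pass (log2 difference 0.78, SE 0.25, adjusted p = 0.079). Without non-trained female library 1 the difference was 0.55 and passed (adjusted p = 0.047), as it did without non-trained female library 5 (0.92, adjusted p = 0.048) and in DESeq2 (0.77, adjusted p = 0.019). In trained mice the difference was 0.49 (SE 0.25, adjusted p = 0.29), with 269.3, 457.6, 449.8, 361.3 and 406.2 CPM in males, against 288.0, 220.7, 319.7, 306.2 and 251.3 CPM in females. That value too passed without non-trained female library 1 (0.49, adjusted p = 0.040), a library outside the comparison that enters the shared estimate of spread. Sparc, which encodes a collagen-binding glycoprotein, averaged 141.6 ± 21.9 CPM in trained males, against 131.1 ± 26.5 CPM in trained females, and 164.8 ± 19.6 CPM in non-trained males, against 126.8 ± 30.0 CPM in non-trained females (n = 5 per group, SD). Its differences were 0.11 and 0.38 (adjusted p = 0.75 and 0.16). Fstl1, a gene for a secreted follistatin-like glycoprotein, had 0.09 and 0.58 (adjusted p = 0.90 and 0.26), with 46.9 to 103.5 CPM in non-trained males, against 14.8 to 63.6 CPM in non-trained females. Without non-trained female library 1 the differences in non-trained mice were 0.35 for Fstl1 (adjusted p = 0.42) and 0.28 for Sparc (adjusted p = 0.36).

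Of 13 listed matrix partners all were tested, and 1 rose in non-trained males, Egfr, the epidermal growth factor receptor gene, to which decorin can bind. It averaged 15.4 ± 1.70 CPM in non-trained males, against 8.41 ± 2.49 CPM in non-trained females (n = 5 per group, SD), or 0.87 on the log2 scale (SE 0.19, adjusted p = 0.0091). None of the 13 passed in trained mice. The list median was 0.30 in trained and 0.41 in non-trained mice, against 0.00 over all genes, with Col3a1, a fibrillar collagen gene, at 0.65 (adjusted p = 0.56) and 1.14 (adjusted p = 0.25). In the myostatin pathway list of 15 genes, 14 were tested and 1 fell in non-trained males, Smad7, the gene of an inhibitor of TGF-beta family signalling. Smad7 averaged 6.72 ± 1.07 CPM in non-trained males, against 9.49 ± 1.11 CPM in non-trained females (n = 5 per group, SD), or -0.50 on the log2 scale (SE 0.14, adjusted p = 0.045). Its call was lost in 12 of 20 fits that left out 1 library and in 4 of 8 other alternatives. None of 9 tested genes of the list for apelin, IL15, FNDC5 and meteorin-like receptors passed, including Itgb5, an integrin gene, at 0.30 and 0.29 (adjusted p = 0.15 and 0.16).

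Of 30 other secreted muscle factors 22 were tested, and Fgf2 fell in males in both states. Fgf2 encodes a fibroblast growth factor stored in the matrix. It averaged 13.2 ± 2.64 CPM in trained males, against 19.8 ± 1.79 CPM in trained females (n = 5 per group, SD), or -0.59 on the log2 scale (SE 0.12, adjusted p = 0.0074). In non-trained mice it averaged 14.7 ± 1.29 CPM in males, against 21.2 ± 3.13 CPM in females (n = 5 per group, SD), or -0.53 (SE 0.12, adjusted p = 0.015). Both calls held under all alternatives run. The other 21 tested genes did not pass in either sex comparison. Il6, Fgf21 and Gdf15, genes of stress- and exercise-linked factors, did not pass the low-count filter, with at most 4, 8 and 8 counts in a library.

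No myokine gene passed with training in either sex, in the mean of both or in the training by sex interaction. The share of all genes that passed was 0% in females, 0% in males, 0.0127% for the mean and 0% for the interaction. Of the 10 genes none in females, 1 in males, 1 for the mean and none for the interaction had an unadjusted p under 0.05, against 8.57%, 4.3%, 9.17% and 4.18% of all genes. DESeq2 and limma-voom also called none of the 10 in these comparisons. Over all genes DESeq2 called 33 in females, 5 in males and 1 for the interaction, and limma-voom called 0 in each. Differences above 0 were seen for 7 of the 10 genes in females, 6 in males, 6 for the mean and 6 for the interaction, against 50.9%, 49.9%, 50.6% and 50.1% of all genes. In neither sex did the 5 trained and 5 non-trained libraries of a sex stand apart for any of the 10 genes, against 1.35% of all genes in females and 1.09% in males.

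Il15 was the gene with an unadjusted p under 0.05. Its log2 difference for trained minus non-trained males was 0.57 (SE 0.20, 95% interval 0.15 to 0.99, unadjusted p = 0.0099, adjusted p = 0.99), a 1.49-fold value. In females it was 0.21 (SE 0.20, adjusted p = 0.82), and the mean of both was 0.39 (SE 0.14, adjusted p = 0.40). The male groups overlapped, with 3.29 to 5.39 CPM in trained and 1.83 to 4.44 CPM in non-trained males. Mstn differed by 0.00 in males (SE 0.23) and by -0.41 in females (SE 0.23, adjusted p = 0.66). Fndc5 differed by 0.47 in males (SE 0.26, adjusted p = 0.99) and 0.09 in females, and Ostn by -0.40 in males (SE 0.29) and 0.21 in females (SE 0.29). Across the 10 genes and both sexes the 95% intervals of the training differences lay between -1.02 (Fstl1 in males) and 1.03 (Fndc5 in males). Of the listed pathway genes and other secreted factors, none passed with training.

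Within groups the 10 genes did not vary alike. After the mean of each group was taken off the log2 CPM values, Mstn and Fndc5 ran against each other over the 20 libraries (Pearson r = -0.86, Spearman rho = -0.86). This pair was picked after its value was seen, both values of a point come from 1 library, and no p is given. In non-trained males Mstn stood at 62.4, 83.5, 117.6, 67.0 and 120.4 CPM in libraries 1 to 5, and Fndc5 at 87.5, 47.6, 39.3, 73.6 and 49.2 CPM in the same libraries. In non-trained females Mstn stood at 101.9, 85.2, 96.7, 51.4 and 54.5 CPM, and Fndc5 at 68.3, 91.9, 56.7, 142.3 and 116.5 CPM. The 2 libraries with the least Mstn held the most Fndc5 in both non-trained groups and in trained females, but not in trained males. There Mstn stood at 102.8, 85.6, 110.9, 80.4 and 72.3 CPM and Fndc5 at 91.5, 93.4, 57.0, 79.3 and 91.5 CPM. Leaving out any 1 library kept r between -0.89 and -0.84, and without the 2 libraries farthest from the median of Mstn it was -0.81.

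The same 2 genes stood on opposite sides of the fibre markers. Summed fast fibre markers had r = 0.77 with Mstn and r = -0.66 with Fndc5 (Spearman rho = 0.79 and -0.77). Summed slow fibre markers had r = -0.50 with Mstn and r = 0.69 with Fndc5 (Spearman rho = -0.48 and 0.65), and summed endothelial markers had r = -0.70 and 0.53 (Spearman rho = -0.73 and 0.62). Fibre type makeup was not measured apart from these transcripts, and its part in the pattern was not tested. The genes most like Mstn were Rora, a nuclear receptor gene (r = 0.92), Tbc1d19 and Eya4 (r = 0.89 each). Those most like Fndc5 were Bdh1, a ketone body enzyme gene of mitochondria, Klhl34 and Khdrbs3 (r = 0.96 each), among 11712 genes compared over the 20 libraries.

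**Figure D3:**
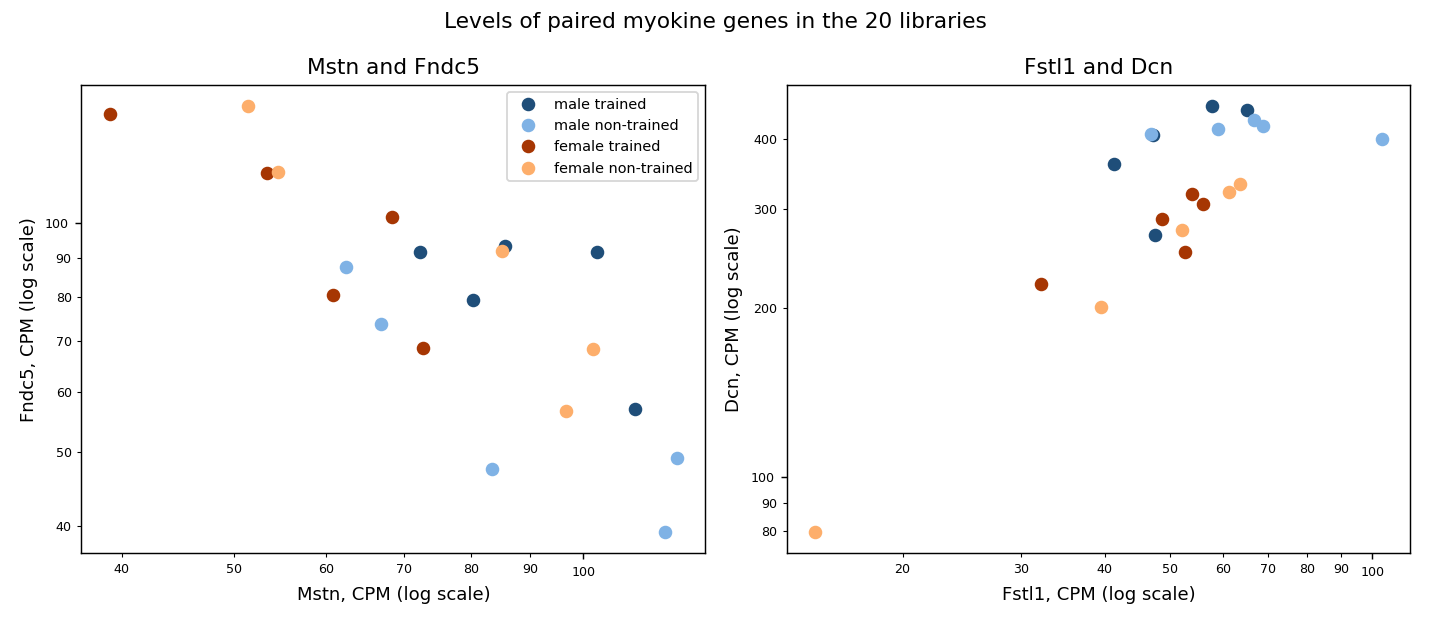
Levels in CPM (log axes) of Mstn against Fndc5 (left) and of Fstl1 against Dcn (right), 1 point per library, coloured by group. Fndc5 falls from left to right as Mstn rises, while Dcn rises with Fstl1, and non-trained female library 1 lies lowest for both matrix genes at 14.8 CPM of Fstl1 and 79.8 CPM of Dcn.

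The matrix genes varied together. Fstl1 had r = 0.86 with Dcn and r = 0.79 with Sparc (Spearman rho = 0.71 and 0.80), and Sparc had r = 0.66 with Dcn (rho = 0.65). Without non-trained female library 1 the values were 0.58, 0.78 and 0.60. Igf1 had r = 0.76 with Sparc, or 0.68 without that library, and r = 0.51 with Dcn, or 0.10 without it (rho = 0.68 and 0.31 over all 20). Fibroblast and fibro-adipogenic markers (Pdgfra, Col1a1, Col3a1, Lum, Dpt and Ly6a) had r = 0.97 with Fstl1, 0.82 with Sparc, 0.78 with Dcn and 0.73 with Igf1, and without that library 0.92, 0.81, 0.40 and 0.57. None of these 6 markers was at 0 in a library or passed between the sexes. Their sum was 235.5 to 669.5 CPM in non-trained males, against 66.5 to 340.6 CPM in non-trained females, and 222.6 to 414.5 CPM in trained males, against 166.5 to 307.2 CPM in trained females. Summed tendon markers had r = 0.90 with Dcn and 0.87 with Fstl1 (rho = 0.80 for each). Without non-trained female library 1 these were 0.66 and 0.63. The part of either marker sum in the levels of Dcn and Igf1 was not tested.

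The genes most like Fstl1 were Col5a2, Fn1 and Fbn1, which encode a collagen chain, fibronectin and fibrillin (r = 0.97, 0.96 and 0.96, or 0.92, 0.92 and 0.90 without non-trained female library 1). Those most like Dcn were Gsn, Abca8a and Ddr2, a collagen receptor gene (r = 0.97, 0.97 and 0.96, or 0.88, 0.93 and 0.90 without that library), and those most like Sparc were Tusc3, E2f5 and Bicc1 (r = 0.89, 0.88 and 0.88). Without that library the values of Sparc were 0.86, 0.86 and 0.85. Igf1 was most like Aldh18a1, Adamts20 and Emb (r = 0.87, 0.83 and 0.81, or 0.83, 0.81 and 0.74 without non-trained female library 1). Metrnl was most like Tm6sf1, Calhm2 and Arhgap30 (r = 0.87, 0.85 and 0.83), and it had r = 0.67 with the macrophage sum, or 0.47 without the 2 libraries farthest from its median. Ostn was most like Gpd2, Uts2b and Zfp960 (r = 0.86, 0.85 and 0.84). Il15 was most like Ldhd, Cox15 and Fam185a (r = 0.83, 0.79 and 0.76, Spearman rho = 0.80, 0.66 and 0.74). Ldhd and Cox15 encode mitochondrial enzymes. The r of Il15 with each of the other 9 genes lay between -0.29 and 0.33. Apln was most like Gnb1l, Ntf3 and Tpst1 (r = 0.80, 0.76 and 0.74, or 0.77, 0.71 and 0.68 without non-trained female library 1). All these genes were picked as the highest r among 11712 compared over 20 libraries. Some high values arise by such a choice alone, and no p is given.

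**Figure D4:**
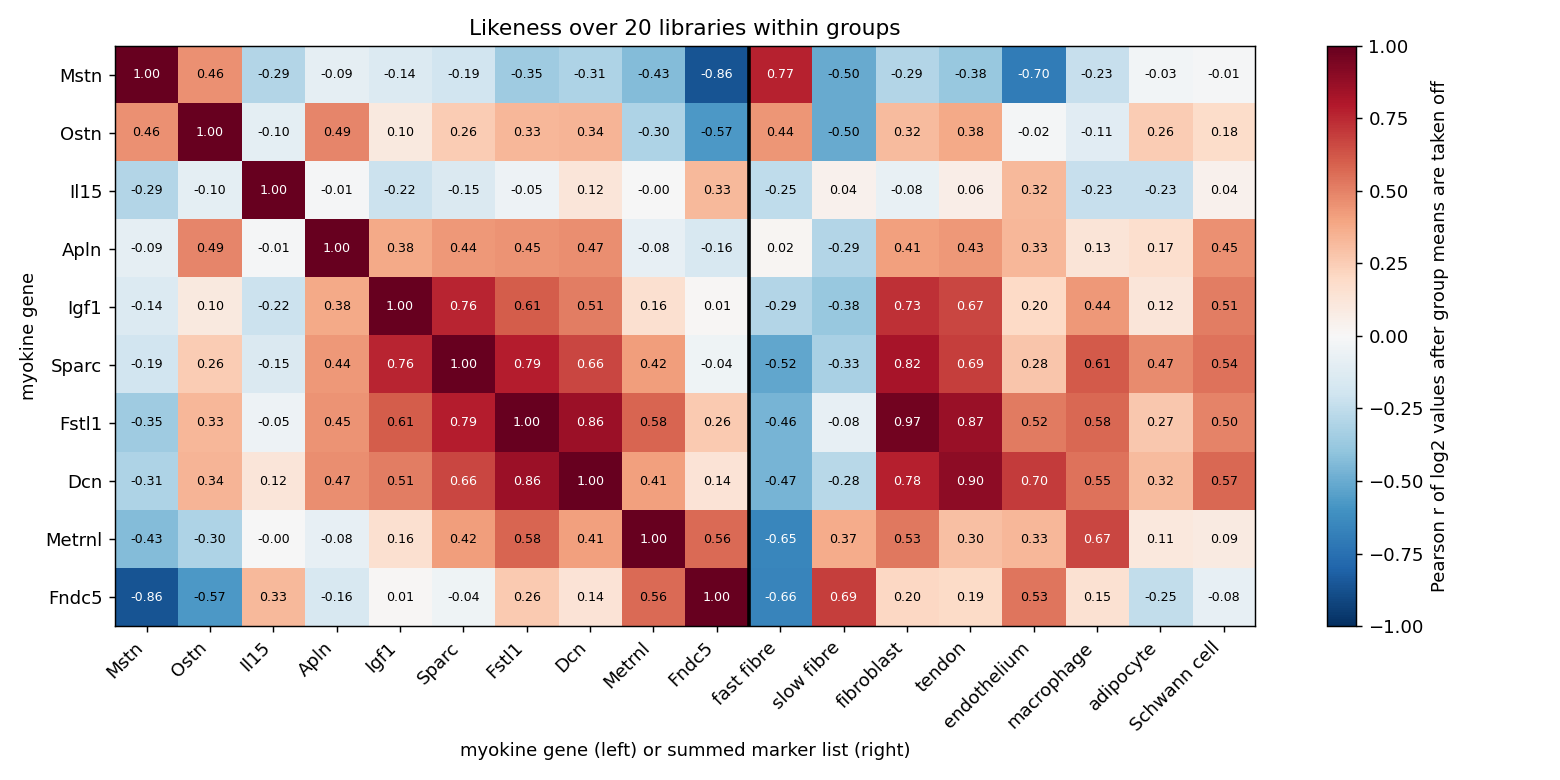
Pearson r over 20 libraries of log2 values after group means were taken off, among the 10 myokine genes (left of the line) and between each gene and the summed level of a marker list (right of the line). Fstl1, Dcn, Sparc and Igf1 have positive values with each other and with fibroblast and tendon markers. Mstn and Fndc5 have opposite signs with fast fibre, slow fibre and endothelium markers, but not in every column.

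Spread within groups differed between the 10 genes. The SD of log2 CPM within groups was 0.27 for Sparc and 0.52 for Apln and Fstl1, against a median of 0.26 over all genes tested. Apln rested on 13 to 73 counts per library, so counting error adds to its spread. Dcn had a coefficient of variation of 2.99% in non-trained males and 43.2% in non-trained females, the group that holds library 1.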

How the data were processed

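Per the labels' protocols, libraries were made with a directional kit after poly(A) selection. Each of the authors' deposited tables holds RSEM's expected counts, TPM, FPKM and transcript-weighted lengths by gene, per the file headers. FPKM was deposited by the authors beside TPM and not used here. The submitters' processing notes list RSEM 1.3.1, STAR 2.5.1, cutadapt, Trim Galore, limma, edgeR and the build GRCm38 without saying what each did. The annotation and the use of strand in counting are not stated there. Libraries of the series beyond these 20 were not analysed here. GENCODE M21 gave symbols for 53360 of 53465 identifiers. Expected counts were rounded, filtered with filterByExpr (minimum count 10, 15709 genes left), scaled by TMM and fitted over all 20 libraries by edgeR's robust quasi-likelihood method (version 4.0.16 under R 4.3.3), with Benjamini-Hochberg adjustment over all genes and a threshold of 0.05. SE is the log2 difference over the square root of F, and log2 CPM has a prior count of 2. Alternatives used DESeq2 1.42.0, limma-voom (limma 3.58.1), other scalings and filters, only the groups compared, and libraries left out. The edgeR fit was tried on simulated counts with known changes in trained females, with a spread estimated from these data. Only training in females was examined there, not the sex comparisons, DESeq2 or limma-voom.

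The members and lists were chosen with earlier results of these data known, the sex difference of Ostn among them. All 10 genes were described, with list genes past the threshold (otherwise the 2 with the smallest unadjusted p) and the 3 genes most like each member with a mean of at least 1 CPM. Further list genes named with their values were chosen after those were seen. Depth was 22043145 to 38483572 counts per library, and the errors given are those of the spread among libraries, which includes counting error.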

Additional observations from a re-analysis of the deposited data

Results flagged for a closer look

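Sparc in trained male library 3 stood far from the rest of its group, at 180.0 CPM, while trained males 1, 2, 4 and 5 had 126.5 to 137.5 CPM. It was the only such value among 40 sets of 5 libraries, where chance gives about 1 in 20. In that library the summed macrophage markers stood at 268.8 CPM, against 55.6 to 127.8 CPM in the rest of the group, and the fibroblast and fibro-adipogenic markers at 414.5 CPM, against 222.6 to 345.5 CPM. Their part in the Sparc value was not tested.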

How the results depend on the processing

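No paired analysis was possible because the labels number the libraries through and give no replicate number shared between groups. No myokine gene was called for training under any alternative. Between the sexes, leaving out 1 library gave 2 to 4 of them in trained and 1 to 4 in non-trained mice. In non-trained mice 1 was called without a low-count filter and 1 with only the groups compared, Il15 in each. Over all genes the counts were 0 in females, 0 in males, 2 for the mean, 0 for the interaction, 880 in trained and 818 in non-trained mice. With DESeq2 they were 33, 5, 30, 1, 1401 and 1465. With 1 library left out they ran from 0 to 1, 0 to 1, 0 to 7, 0 to 0, 494 to 1239 and 435 to 1038. For the mean 0 were called in limma-voom, 1 without a filter and 0 without 3 libraries that were set apart. These were non-trained female 1 with few genes, trained male 3 with high macrophage markers, and non-trained male 4. Of all libraries, non-trained male 4 had the highest sum of fibroblast and fibro-adipogenic markers, 669.5 CPM. It also had the highest Fstl1 and Sparc levels, 103.5 and 193.4 CPM. This alternative was chosen after the data were seen. Without a filter 558 were called in trained mice, and with only the groups compared 448 in non-trained mice. Without TMM the direction of Igf1, Il15 and Ostn held.

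Log2 differences near 0 changed sign with 1 library left out. In females they ran from -0.214 to 0.222 for Igf1, -0.297 to 0.119 for Apln, -0.0553 to 0.282 for Fndc5, -0.0303 to 0.372 for Metrnl, -0.0531 to 0.134 for Sparc, -0.0312 to 0.336 for Dcn and -0.154 to 0.219 for Fstl1. In males they ran from -0.0985 to 0.137 for Mstn and -0.161 to 0.0112 for Dcn. For the mean they ran from -0.0732 to 0.135 for Apln, -0.157 to 0.0704 for Ostn and -0.0618 to 0.120 for Dcn, and for the interaction from -0.00149 to 0.435 for Igf1. Between the sexes they ran from -0.00385 to 0.370 for Metrnl and -0.0284 to 0.160 for Fstl1 in trained mice, and from -0.193 to 0.209 for Metrnl in non-trained mice. Igf1 in females was 0.105 in limma-voom, and Metrnl in non-trained mice 0.102 in limma-voom and 0.00514 without TMM. Without the 3 libraries, values in females were -0.00769 for Fndc5, -0.0510 for Sparc, -0.0289 for Dcn and -0.152 for Fstl1. Mstn in males was then -0.168, Dcn for the mean -0.0961, and Metrnl and Fstl1 between the sexes in trained mice -0.00377 and -0.0107. The cause was not tested. Depth limits Apln most, at 13 to 73 counts per library.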

Other observations

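Ostn and one of the genes most like it, Uts2b, which encodes a urotensin peptide, lie next to each other on chromosome 16 with their ends facing. Ostn ends at 27351212 on the plus strand and Uts2b runs from 27353322 to 27370239 on the minus strand (GRCm38), 2109 bases apart. Uts2b averaged 2.56 CPM over the 20 libraries. The r of 0.85 between them was 0.68 without the 2 libraries farthest from the median of Ostn.

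The length that RSEM gives a gene is the mean of its transcripts weighted by their estimated abundance, so it moves with the mix of transcripts. It ran from 3327 to 7052 bases for Igf1, which has 8 transcripts in the table, and from 721.4 to 1165 bases for Il15, which has 10. For Dcn, with 5 transcripts, it stayed between 1757 and 1766 bases. Non-trained female library 1, with the lowest Igf1 level, had the longest Igf1 value.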
